A study of Mus musculus with 10 samples.

Results

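The histone genes of the mouse heart were followed in RNA-seq tables of 2 Larp7 knockout models. Members were taken by gene symbol: names that begin with Hist1h to Hist4h were counted as replication-type genes, and names that begin with H1f, H2af or H3f3 as variant genes. The rule found 39 of the 15498 genes listed in embryonic hearts (E15.5), of which 27 were replication-type and 12 variant. In the adult table it found 28 of 15989 genes, of which 16 were replication-type and 12 variant. Together the tables held 52 such genes, and 15 were in both. The symbols follow 2 different annotation releases, so a gene seen in a single table can be a matter of naming.

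Histones wrap DNA into nucleosomes, each built on the core types H2A, H2B, H3 and H4, with H1 bound to the linker between them. Replication-type genes lie in clusters, are transcribed mainly in S phase, and their mRNA normally ends just after a conserved stem-loop instead of in a poly(A) tail. Variant genes such as H2afz (H2A.Z) and H3f3a and H3f3b (both H3.3) are transcribed through the cell cycle, mostly carry introns and poly(A) tails, and supply histones to cells that no longer divide, such as most adult cardiomyocytes.

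The study compared heart RNA of C57BL/6 mice with and without LARP7, an RNA-binding protein of the 7SK complex. The embryonic groups were 3 samples of whole Larp7+/+ hearts and 3 of whole Larp7-/- hearts, a knockout in all cells. The adult groups, 4 months old, were 2 samples of heart apex from Larp7f/f mice, labelled CTR, and 2 from Myh6Cre;Larp7f/f mice, labelled mCKO. Both adult groups thus carry floxed alleles, the labels give Cre to mCKO alone, and the Myh6 promoter drives it in cardiomyocytes, so other cells of the apex keep the gene. The labels name no animals, so it is unknown whether replicates are separate hearts, and a p-value here speaks only of the spread between the samples given.

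The stem-loop near the 3' end of the mRNA was looked for in the GENCODE M21 transcripts (mouse build GRCm38). The searched motif was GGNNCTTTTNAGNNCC on the transcript's own strand, with the first and last 6 bases able to pair. It occurred in a transcript of 50 of 55341 annotated genes (0.0903%), and 45 of these 50 carry names of the histone rule. The listed members were read in 1 transcript each, the longest protein-coding one or, where none is coding, the longest. In these, 24 of 38 replication-type genes and 1 of 14 variant genes, H2afx, held it. A shorter transcript of a member could hold the motif unseen. The annotated models of 7 replication-type genes hold only coding sequence, so no match there says nothing about their mRNA. Other short models, such as those of Hist1h2af (399 bases) and Hist1h2ah (405 bases), carry the same limit. The sites of members described below, 5' to 3' with the stem-loop in capitals, read:

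Hist1h2ap: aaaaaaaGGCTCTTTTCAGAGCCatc

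Hist1h2ao: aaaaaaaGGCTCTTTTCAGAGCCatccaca

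Hist1h2ag: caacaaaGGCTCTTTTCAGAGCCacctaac

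Hist1h1c: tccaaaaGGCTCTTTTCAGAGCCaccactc

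Hist3h2a: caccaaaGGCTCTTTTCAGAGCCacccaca

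Hist1h4h: aaccaaaGGCCCTTTTCAGGGCCgcccaca

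H2afx: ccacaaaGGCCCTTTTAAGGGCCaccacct

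The first 5 share 1 stem-loop, letter for letter. The gene models differ in what follows it. The annotated transcript of Hist1h2ap stops 3 bases after the stem-loop, that of Hist1h2ag 23 bases after and that of Hist1h2ao 31 bases after. Those of Hist1h1c, Hist3h2a and H2afx run on for 840, 1643 and 822 bases. Whether the libraries were made by poly(A) selection was not given in the sources used here, so the share of histone mRNA that could enter them is unknown.

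All values below are the deposited per-million values, which are rounded to whole numbers. Larp7 was lower in the embryonic knockout (96, 88 and 103 against 45, 54 and 40, without overlap), whereas the adult values (26 and 28 in CTR, 26 and 24 in mCKO) did not separate the labels. Which part of the gene is deleted or floxed was not given in the sources used here, and the adult groups are named below by their labels. Each sample's deposited values add up to 998498 to 1001508, and sequencing depth is unknown and no counting interval can be given. In the histone genes, the control and the knockout value with a given replicate number make up a nearly constant sum, to within 2 in 39 of 39 embryonic and 27 of 28 adult members, so the SDs of both groups are nearly equal and are not independent. The tissue label was checked on cardiomyocyte markers, whose listed members summed to 15757 or more at E15.5 and to 65252 or more in the adult. Tables were scaled separately, and levels are compared neither between genes nor, by any test, between tables.

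At E15.5 the H2A genes of the large cluster on chromosome 13, named Hist1h2a, had the most negative log2 changes among the histone genes, and limma called 0 of the 35 histone genes tested, beside 0.632% of all tested genes. Hist1h2ap (chromosome 13, 21833026 to 21833507, minus strand) encodes a core H2A. Its values were 51, 66 and 37 in the Larp7+/+ hearts and 22, 7 and 37 in the Larp7-/- hearts. Wild-type samples 1 and 2 were above every knockout sample, while the samples numbered 3 were equal. On the log2(value + 1) scale used throughout, knockout minus control was -1.41 (SE 0.85, adjusted p = 0.61 by limma after Benjamini-Hochberg correction).

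Hist1h2ao (chromosome 13, 21810465 to 21810944, plus strand) has a coding sequence identical to that of Hist1h2ap. It had 42, 57 and 31 in the wild type and 19, 5 and 31 in the knockout (log2 change -1.46, SE 0.92, adjusted p = 0.62, limma). Hist1h2ag (chromosome 13, 22042460 to 22042944, minus strand), a further core H2A gene, had 27, 40 and 21 in the wild type and 15, 3 and 22 in the knockout (log2 change -1.37, SE 0.98, adjusted p = 0.67, limma). In all 3 genes the groups overlapped at replicate number 3 alone, and the lowest of the 6 values was that of knockout sample 2.

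In the remaining 7 Hist1h2a genes the lowest value was again in knockout sample 2, and the samples numbered 3 tied. Hist1h2ah had 10, 13 and 8 in the wild type and 5, 3 and 8 in the knockout. Hist1h2ai had 9, 10 and 6 against 4, 2 and 6, and Hist1h2ab had 8, 10 and 6 against 4, 1 and 6. Hist1h2an, Hist1h2aj, Hist1h2af and Hist1h2ak lay between 0 and 8. All 10 log2 changes were negative, between -1.46 and -0.53, with a median of -1.05, against a median of 0.11 over the 13609 genes tested. Within the replicate numbers the medians of the 10 genes were -0.86, -2.17 and 0.00. Summed over the 10 genes, the wild-type samples had 162, 217 and 121 and the knockout samples 76, 23 and 122. The genes were grouped by name after their values had been seen, and these figures are a description.

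**Figure D1:**
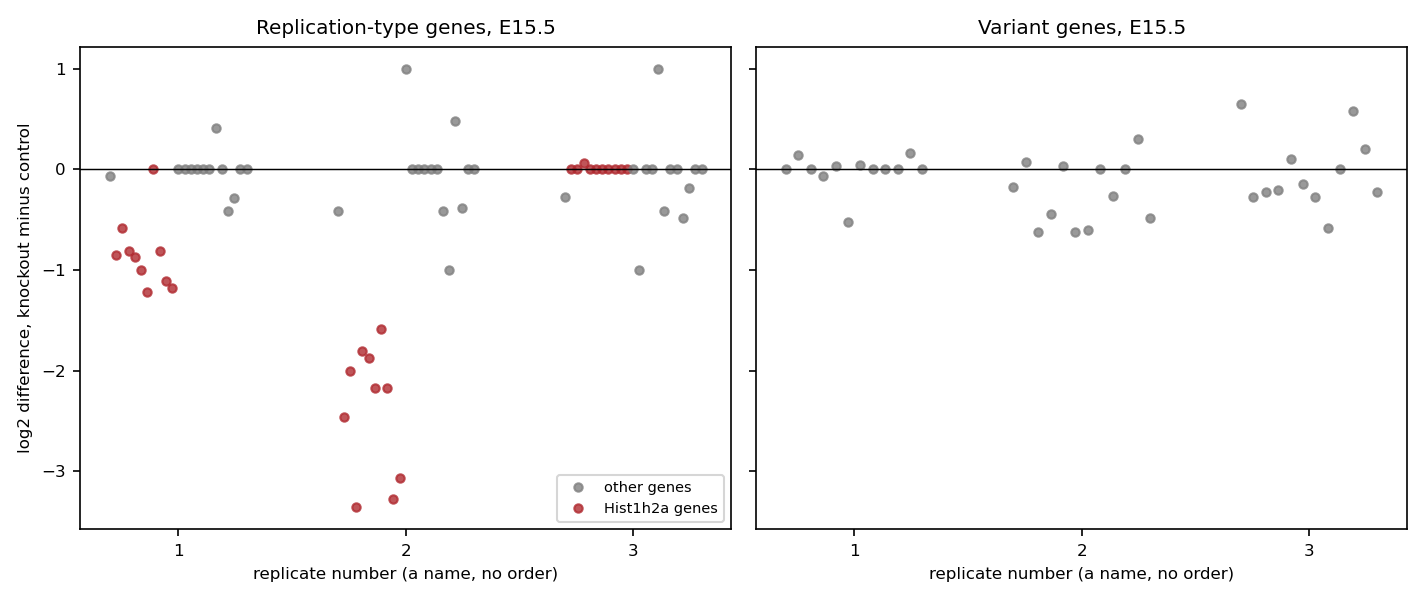
Log2 difference between knockout and control within each replicate number at E15.5, on the log2(value + 1) scale, 1 point per tested gene and number, for replication-type genes (left, Hist1h2a genes in red, other genes in grey) and variant genes (right). The red points have medians of -0.86 at number 1, -2.17 at number 2 and 0.00 at number 3; horizontal offsets only keep points apart.

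The 10 values cannot count as 10 observations. Of the 50-base windows in their transcripts, a median of 91.1% (57.0% to 94.0%) also occurred in transcripts of other genes, mostly of the same family, and 8 of the genes compared over a coding length of 393 bases shared 96.2% to 100% of them. All 10 overlap a predicted gene on the opposite strand, and the sources used here give neither the strand setting nor the treatment of reads with several matches, so reads cannot be assigned with certainty to single members. Hist1h2aj is annotated as an unprocessed pseudogene. Because of the constant totals, a deviation cannot be placed in the control or the knockout sample of a number.

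Of the 250 bases before a gene's start plus 50 after it, as RefSeq gives them for GRCm38.p6, a window was found for 9 of the 10 Hist1h2a genes. CCAAT, searched on both strands, was in 9 of the 9, and in 28 of 33 replication-type, 6 of 10 variant and 37.4% of all 32851 windows. TATAAA, searched on both strands, was in 4 of the 9, in 19 of 33 replication-type, 1 of 10 variant and 13.6% of all windows. Some replication-type windows overlap on opposite strands, such as those of Hist1h2ah and Hist1h2bk, and those of Hist1h2ao and Hist1h2ap share sequence. These counts are therefore not counts of separate promoters. The 250 bases before the RefSeq start are shown for Hist1h2ap and for H2afz, the variant gene with the most negative change. The GENCODE span of Hist1h2ap on the minus strand reaches 21833507, so the end of its printed stretch lies inside the annotated transcript. CCAAT is in capitals, written ATTGG where it lies on the other strand. The stretches are chr13:21833476-21833725 on the minus strand and chr3:137864237-137864486 on the plus strand:

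Hist1h2ap: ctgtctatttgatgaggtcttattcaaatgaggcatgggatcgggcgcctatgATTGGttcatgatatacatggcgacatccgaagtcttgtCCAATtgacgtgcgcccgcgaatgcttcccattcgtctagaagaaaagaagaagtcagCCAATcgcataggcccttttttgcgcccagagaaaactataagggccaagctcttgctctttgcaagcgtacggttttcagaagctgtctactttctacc

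H2afz: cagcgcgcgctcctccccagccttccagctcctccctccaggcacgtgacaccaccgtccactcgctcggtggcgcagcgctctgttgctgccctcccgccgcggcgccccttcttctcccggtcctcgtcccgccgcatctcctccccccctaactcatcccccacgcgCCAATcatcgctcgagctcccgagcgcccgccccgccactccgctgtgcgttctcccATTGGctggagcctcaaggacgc

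A match of these letters is a description of the window and was not linked to the measured values.

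Outside the Hist1h2a genes, replication-type values at E15.5 differed little or were close to 0. Hist1h1c, a linker histone H1, had 21, 23 and 22 in the wild type and 20, 17 and 18 in the knockout (log2 change -0.25, SE 0.20, adjusted p = 0.60, limma). Hist3h2a, an H2A gene outside the chromosome 13 cluster, had 16, 16 and 16 against 13, 12 and 14 (log2 change -0.28, SE 0.22, adjusted p = 0.59, limma). In both genes every knockout value was below every wild-type value. Hist2h2be, an H2B gene of the chromosome 3 cluster, had 19, 14 and 20 against 14, 20 and 14, so its groups overlapped fully. The other H2B, H3, H4 and H2A genes were listed at 0 to 4 in every sample, where a step of 1 is most of the value. Without the Hist1h2a genes the 13 tested replication-type genes had a median log2 change of 0.00, with 2 positive, 6 negative and 5 at 0. Their summed values, over all 17 listed, were 73, 70 and 75 in the wild type and 64, 65 and 62 in the knockout.

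Among the variants at E15.5, H2afz, the H2A.Z gene whose product replaces H2A near transcription start sites, was below the wild type in every knockout sample. It had 1154, 1185 and 1026 in the wild type (1122 ± 84.3, SD, n = 3) and 801, 771 and 931 in the knockout (834 ± 85.0, SD, n = 3). The groups did not overlap, yet the log2 change of -0.43 (SE 0.18, adjusted p = 0.28, limma) missed the threshold. The authors' deposited table gives H2afz a log2 change of -0.49 (SE 0.15) with an adjusted p of 0.0598. Of the windows in its transcript 69.6% also occurred in other transcripts, so reads with several matches limit its value too.

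H2afv, which encodes the second H2A.Z protein, had 190, 231 and 205 in the wild type and 190, 150 and 176 in the knockout, equal at number 1 and lower in the knockout at numbers 2 and 3 (log2 change -0.28, SE 0.17). H2afx, the H2A.X gene whose product is phosphorylated at DNA breaks, had 132, 148 and 138 against 126, 109 and 120, without overlap (log2 change -0.23, SE 0.16). H2afj had 18, 19 and 22 against 20, 20 and 18, with overlap. H2afy2, a macroH2A gene, had 41, 41 and 40 against 42, 42 and 43, and with median-of-ratios scaling its change of 0.057 turned to -0.0062.

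The H3.3 genes encode the same protein and had changes of opposite sign. H3f3b had 1287, 1219 and 1269 in the wild type and 1439, 1506 and 1457 in the knockout, with every knockout value higher (log2 change 0.22, SE 0.18, adjusted p = 0.62, limma). H3f3a had 230, 283 and 256 against 238, 186 and 212, with overlap (log2 change -0.27, SE 0.17, adjusted p = 0.50, limma). The difference between these changes was not tested. The linker gene H1fx had 8, 8 and 6 against 8, 7 and 10. The processed pseudogenes had values of 2, 2 and 2 against 2, 2 and 1 (H3f3a.ps1), 4, 5 and 4 against 4, 4 and 4 (H3f3a.ps2) and 5, 6 and 6 against 5, 4 and 5 (H3f3c). The antisense gene H3f3aos had 1, 2 and 1 against 1, 2 and 2. These 4 cannot be told apart from their parent gene or overlapping partner with certainty. H2afx, H2afj, H1fx, H3f3a and H2afy2 also overlap a gene on the other strand, whose reads could not be told apart here.

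Counted over the classes at E15.5, 0 of 35 tested members were called by limma, against 86 of 13609 genes. At an unadjusted p under 0.05 there were 7, all lower in the knockout: H2afz and 6 Hist1h2a genes (ab, af, ah, ai, aj and an), beside 3.62% of all tested genes lower and 10.3% higher at that mark. The authors' deposited table gives an unadjusted p under 0.05 to 4 members (H2afz, Hist1h2ag, Hist1h2ao and Hist1h2ap), beside 3.48% of its genes, and an adjusted p under 0.05 to 0 of the 5 members that have one, beside 1% of 2601 genes. Groups did not overlap and were lower in the knockout in 4 members (Hist1h1c, Hist3h2a, H2afz and H2afx), beside 8.75% of tested genes, and were higher in 2 (H3f3b and H2afy2), beside 19.3%. The median log2 change was -0.33 for the 23 replication-type genes tested (2 positive, 16 negative) and -0.14 for the 12 variant genes (4 positive, 8 negative), beside 0.11 for all genes (8226 positive, 4500 negative). The replication-type genes Hist1h2bp, Hist1h3i, Hist1h4j and Hist2h3c2, reached a value of 1 in a single sample each and were not tested, and a gene could enter the test through 1 group alone. When the wild-type or the knockout sample of replicate number 3 was left out, 7 Hist1h2a genes were called lower, beside 316 and 312 calls over all genes in place of 86. With no filter on low values 5 of them were called, beside 601 over all genes.

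**Figure D2:**
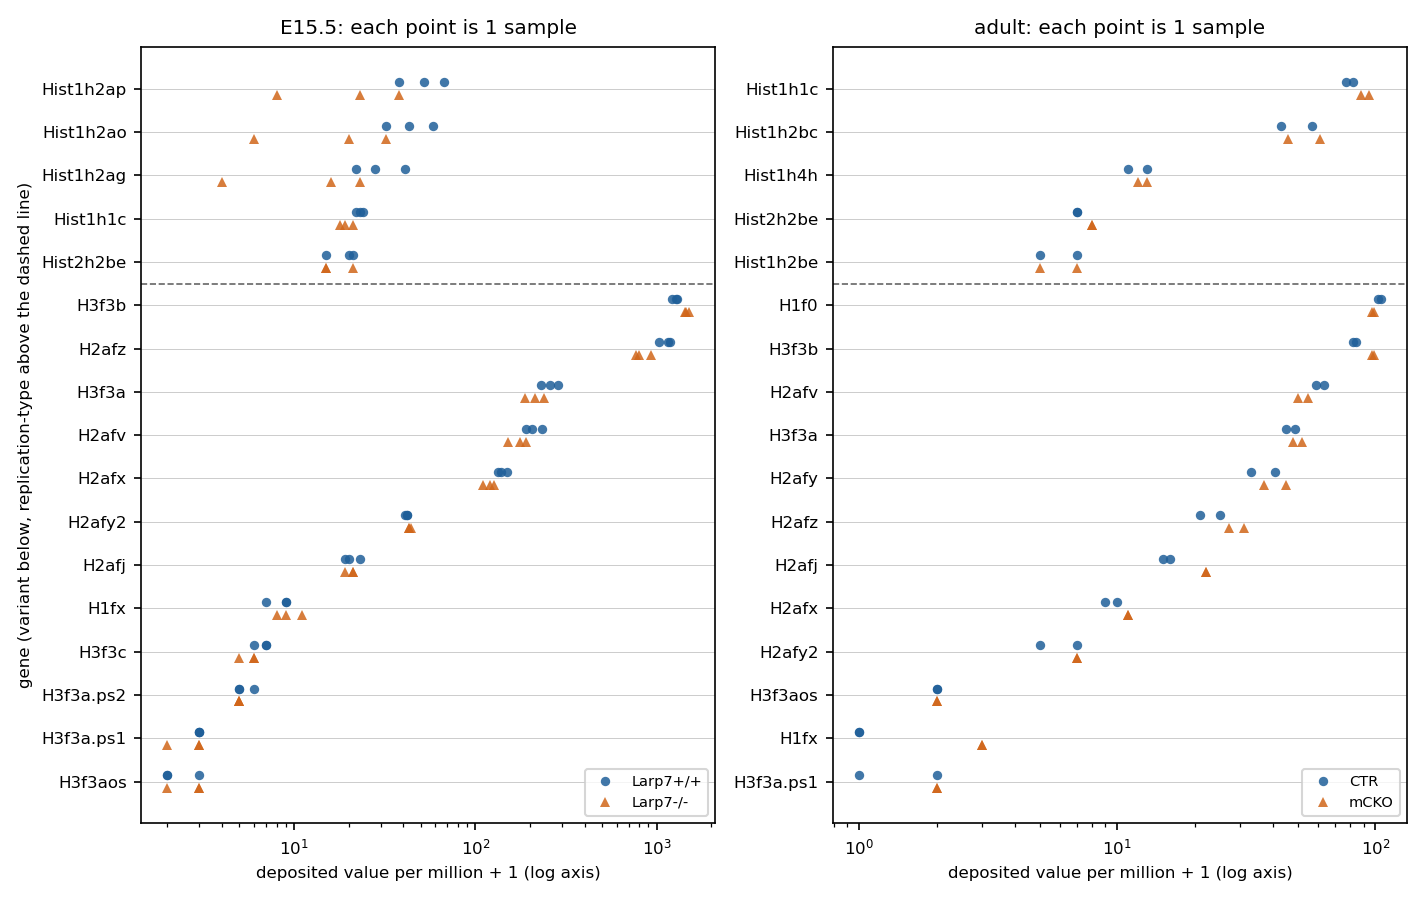
Deposited per-million values plus 1, on a log axis, of the named histone genes at E15.5 (left, 3 samples a group) and in the adult (right, 2 samples a group), circles for controls and triangles for knockouts. At E15.5 the triangles of Hist1h2ap, Hist1h2ao and Hist1h2ag stand for deposited values of 3 to 37 before the 1 is added. They meet the circles at their upper end, and the triangles of H3f3b all lie at higher values than its circles. Positions are not comparable between genes.

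Markers of several cell types also varied between these embryonic samples. The erythroid marker list (12 of 14 genes listed) summed to 7766, 7758 and 3164 in the wild type and 4878, 4886 and 9785 in the knockout, and the stratified epithelium list (6 of 10 listed) to 104, 62 and 62 against 233, 65 and 66. Some genes of these lists, such as Krt15 (36, 18 and 18 against 74, 19 and 19), break the constant totals. Cardiomyocyte markers (7 of 12 listed) summed to 20854, 23109 and 24818 against 19719, 17466 and 15757, without overlap, and 6 of the 7 had a negative change. Endothelial markers (9 of 10 listed) summed to 1551, 1433 and 1467 against 1580, 1697 and 1662, and fibroblast markers (7 of 10 listed) to 4948, 5038 and 4120 against 5135, 5049 and 5963, both higher in the knockout without overlap. Among the fibroblast markers 5 had a positive and 2 a negative change, and Pdgfra was called higher (71, 72 and 69 against 115, 115 and 118). Among the endothelial markers 7 had a positive and 2 a negative change, and Cdh5 was lower without overlap (305, 292 and 322 against 256, 269 and 239). The cardiomyocyte marker Tnnc1 was called lower (1018, 1124 and 1189 against 746, 640 and 576). Macrophage markers (6 of 10 listed) overlapped, at 94, 100 and 83 against 98, 94 and 111. The samples numbered 3, nearly equal in Hist1h2a, were the furthest apart in erythroid and cardiomyocyte markers. The part of these cells in the histone values was not tested, and in bulk tissue fewer cells of a type and less RNA per cell cannot be told apart.

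Genes that work around histones were read from lists of S phase, mitosis, histone mRNA and chaperone genes. At E15.5 limma called 0 of 28 S phase genes, 0 of 20 G2 and mitosis genes, 0 of 15 genes of histone mRNA transcription and 3' processing and 0 of 20 chaperones and exchange factors. At an unadjusted p under 0.05 the S phase list had 4 genes and the G2 and mitosis list 1, all lower in the knockout. The histone mRNA list and the chaperone list had 1 each, both higher. Of all tested genes 3.62% were lower and 10.3% higher at that mark, and limma called 0.632%. Groups did not overlap in 7 S phase genes that were lower and 1 that was higher. The G2 and mitosis list had 3 lower and 1 higher, the histone mRNA list 2 lower and 2 higher, and the chaperone list 3 lower and 8 higher. Of all tested genes 8.75% were lower and 19.3% higher without overlap. The S phase genes had 14 positive and 14 negative changes with a median of -0.01, and the G2 and mitosis genes 5 positive and 15 negative with a median of -0.07. Pcna, the replication clamp, had 236, 253 and 259 in the wild type and 209, 191 and 186 in the knockout, without overlap (log2 change -0.35, SE 0.16, adjusted p = 0.33, limma). Cenpa, the centromeric H3 variant that the naming rule leaves out, had 194, 185 and 168 against 133, 143 and 159, also without overlap (log2 change -0.33, SE 0.16, adjusted p = 0.37, limma).

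Slbp, whose protein binds the stem-loop printed above, had 68, 76 and 75 in the wild type and 78, 69 and 71 in the knockout. Npat, a transcription coactivator of replication-type histone genes, had 45, 42 and 39 against 45, 49 and 52, meeting at 45. Asf1b, a chaperone of H3 and H4, had 218, 173 and 209 against 180, 225 and 189, and the proliferation marker Mki67 280, 250 and 239 against 248, 278 and 288. The groups of these 4 genes overlapped.

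**Figure D3:**
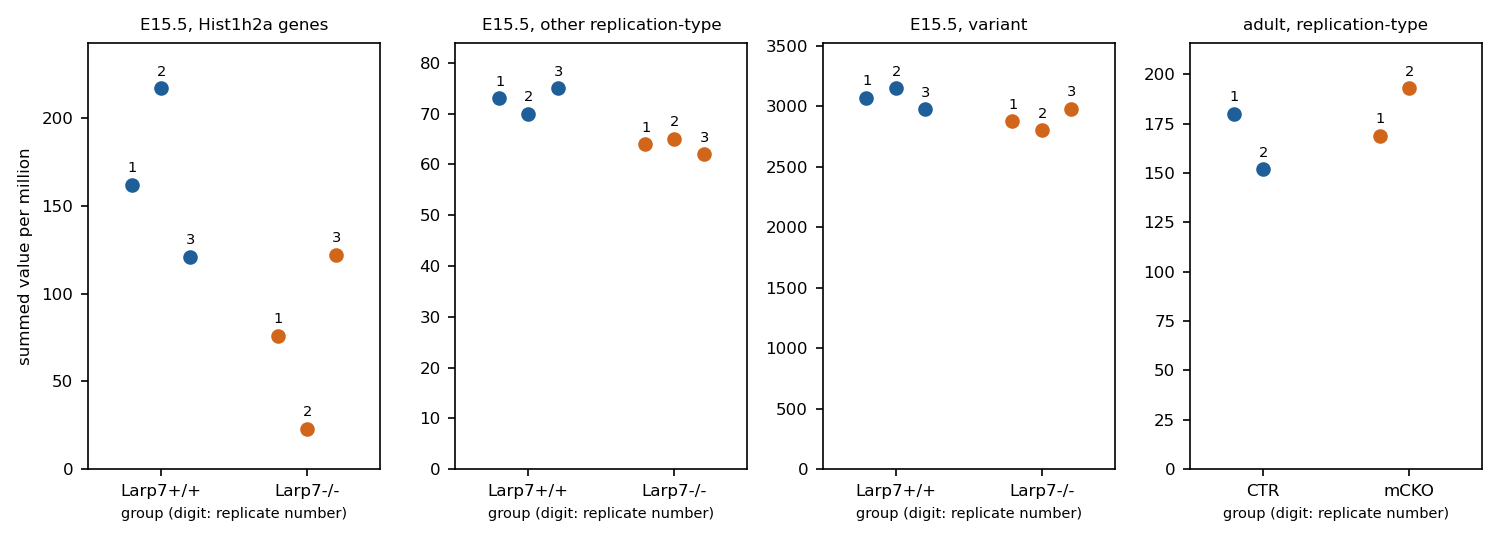
Summed deposited per-million values in each sample, digits giving the replicate number, for the 10 Hist1h2a genes, the other 17 replication-type genes and the 12 variant genes at E15.5 and for the 16 replication-type genes in the adult; each axis starts at 0. The Hist1h2a sums run from 121 to 217 in the wild type and from 23 to 122 in the knockout, and the adult sums lie between 152 and 193 with the groups overlapping.

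In the adult apex limma called 0 of the 25 histone genes tested, beside 3.29% of all genes, and no Hist1h2a gene of the embryonic set was listed. Hist1h1c had 81 and 76 in CTR and 87 and 93 in mCKO, without overlap (log2 change 0.19, SE 0.15, adjusted p = 0.69, limma). Hist1h2bc, an H2B gene, had 56 and 42 against 45 and 60, with overlap. Hist1h4h, an H4 gene, had 12 and 10 against 11 and 12, Hist2h2be 6 and 6 against 7 and 7, and Hist1h2be 6 and 4 against 4 and 6. Hist1h2al, a processed pseudogene of an H2A gene, had 5 and 2 against 1 and 1, and it is the single histone gene whose totals by number did not agree to within 2. The 16 replication-type genes summed to 180 and 152 in CTR and to 169 and 193 in mCKO, with overlap.

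Of the 12 adult variants 9 had a positive log2 change and 2 a negative one. H2afj, an H2A variant, had the smallest adjusted p of the histone genes: 15 and 14 in CTR against 21 and 21 in mCKO (log2 change 0.51, SE 0.19, adjusted p = 0.15, limma). H3f3b had 81 and 83 against 98 and 96 (log2 change 0.24, SE 0.15), H2afz 20 and 24 against 30 and 26 (0.34, SE 0.17) and H2afx 9 and 8 against 10 and 10 (0.21, SE 0.25), each without overlap. H1fx was listed at 0 and 0 in CTR and at 2 and 2 in mCKO, for which no fold is given. H2afv had 62 and 58 against 49 and 54 (log2 change -0.22, SE 0.15), and H1f0, the linker histone of non-dividing cells, 104 and 101 against 96 and 98 (-0.08, SE 0.15), both lower without overlap. H3f3a (44 and 48 against 51 and 47), H2afy (32 and 40 against 44 and 36), H2afy2 (4 and 6 against 6 and 6), H3f3a.ps1 (0 and 1 against 1 and 1) and H3f3aos (1 in every sample) overlapped.

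**Figure D4:**
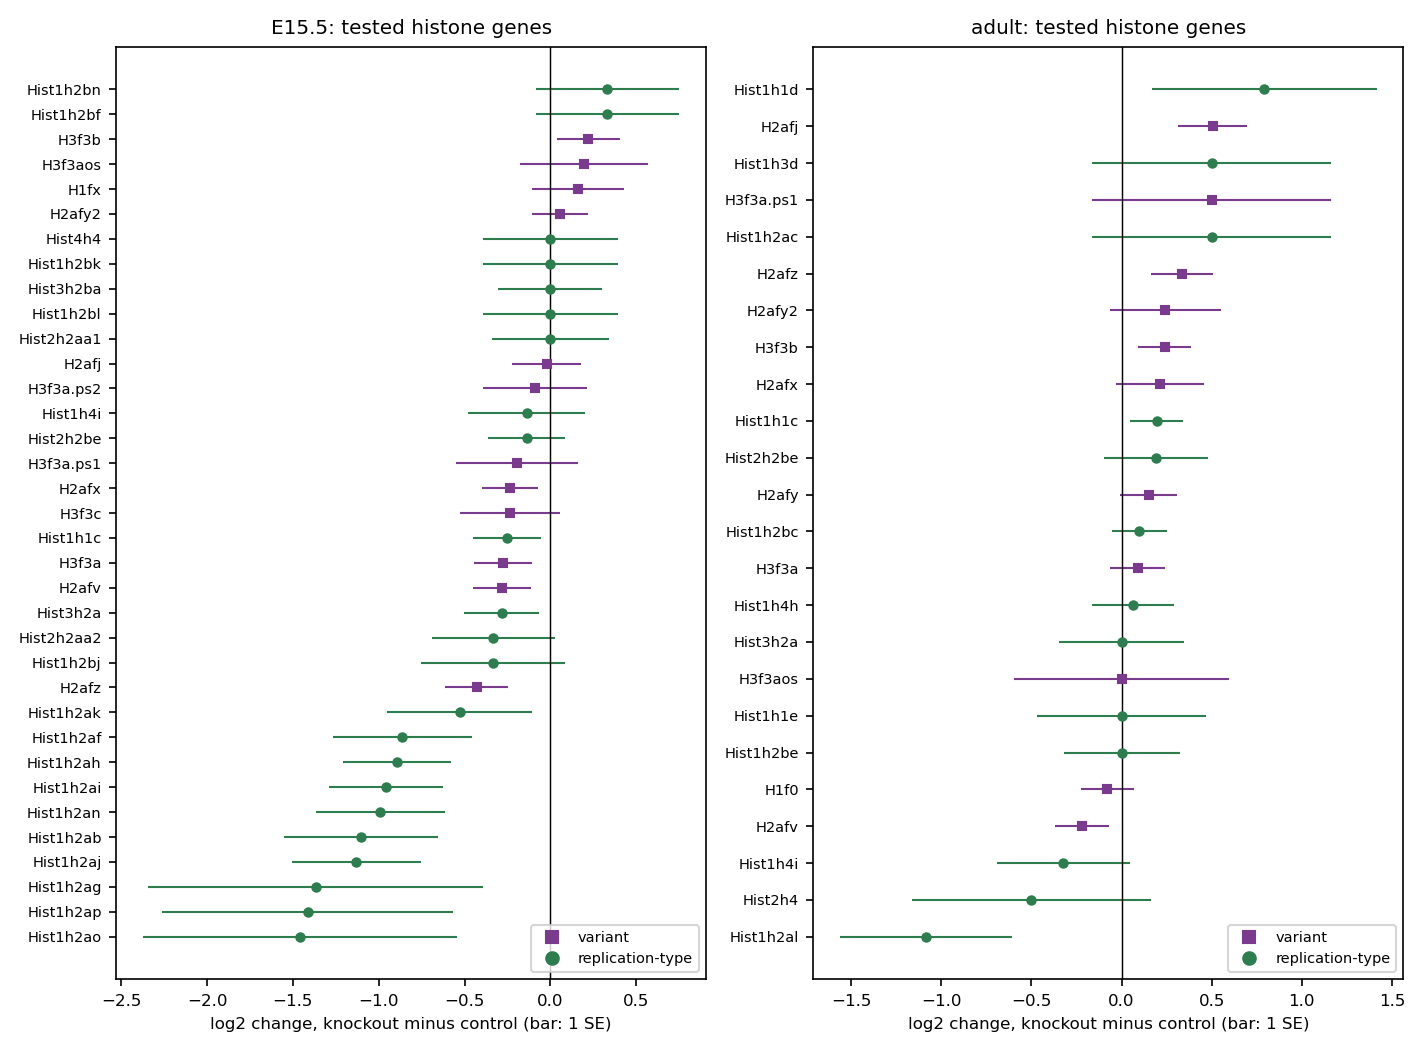
Log2 change, knockout minus control, with a bar of 1 SE from limma, for the tested histone genes at E15.5 (left) and in the adult (right), circles for replication-type and squares for variant genes; H1fx, listed at 0 in CTR, is left out of the adult panel. The lowest embryonic values are the 10 Hist1h2a genes, between -1.46 and -0.53, and the adult variants with groups apart lie between -0.22 and 0.51.

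Over all tested genes of the adult table limma called 488 of 14835 (3.29%). At an unadjusted p under 0.05 there were 3 members, H1fx and H2afj higher and Hist1h2al lower, beside 9.05% of tested genes higher and 3.3% lower. H1fx, at 0 and 0 in CTR and 2 and 2 in mCKO, entered the test through mCKO alone. Its p and its place in the counts given here are therefore no evidence of a change. The authors' deposited table gives 0 of 28 members such a p, beside 1.31% of its genes. Groups did not overlap in 7 members that were higher in mCKO, beside 29.3% of tested genes, and in 4 that were lower, beside 12.8%. The median log2 change was 0.06 for the 13 replication-type genes tested (7 positive, 3 negative) and 0.23 for the 12 variant genes (9 positive, 2 negative), beside 0.08 for all genes. Hist1h4d, Hist1h4k and Hist3h2ba reached a value of 1 in a single sample and were not tested. Each adult gene has 1 residual degree of freedom, so its SE and p rest mostly on spread pooled over genes, and H2afj passed the threshold when the replicate block was dropped.

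The lists around the histone genes had mostly positive changes in the adult, as did all tested genes (8592 positive and 4237 negative of 14835). Of 30 S phase genes 23 had a positive change, with a median log2 change of 0.33. Limma called 0 of them, and 5, all higher, had an unadjusted p under 0.05. At that mark 9.05% of all tested genes were higher and 3.3% lower, and limma called 3.29%. Of 24 G2 and mitosis genes 22 were positive, with a median of 0.79, and 3 were called higher. These were Mki67 (1 and 5 in CTR against 11 and 8 in mCKO), the topoisomerase gene Top2a (2 and 5 against 12 and 9) and the spindle factor Tpx2 (0 and 2 against 5 and 4). Ccnb1, Birc5 and Cenpe were listed at 0 and 0 in CTR and entered the test through mCKO alone. Tpx2, Cdc20 and Kif11, each at 0 and 2 in CTR, would not have entered without their mCKO values. The place of such genes in the count of positive changes, the median and the calls is therefore no evidence of a change. Limma called 0 of 21 histone mRNA genes (2 at an unadjusted p under 0.05, both higher, median 0.14). It called 0 of 31 chaperones and exchange factors (2 at that mark, both higher, median 0.13). Pcna had 24 and 28 against 34 and 32, Npat 8 and 8 against 12 and 12, Slbp 9 and 10 against 11 and 11, and Chaf1a, a subunit of the assembly factor that places H3 and H4 at replication forks, 1 and 2 against 5 and 4. None of these 4 genes passed the test, and their groups did not overlap. Cenpa (31 and 35 against 34 and 30), Hira, the H3.3 chaperone (5 and 5 against 6 and 5), and Asf1b (3 and 2 against 3 and 3) overlapped.

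Markers of other cells differed between the adult groups as well. The fibroblast list summed to 1450 and 1791 in CTR and 2917 and 2576 in mCKO, the macrophage list to 632 and 638 against 751 and 746, and the endothelial list to 1180 and 1145 against 1036 and 1072, each without overlap. Stratified epithelium markers (5 of 10 listed) summed to 147 and 147 against 185 and 182, also without overlap. Of the 4 tested, 2 had a positive and 2 a negative change. Cardiomyocyte markers summed to 67996 and 69463 against 66722 and 65252, without overlap, although 5 of the 12 had a positive change and 7 a negative one. Limma called 1 cardiomyocyte marker and 1 macrophage marker, both higher in mCKO. Erythroid markers (8 of 14 listed) summed to 1486 and 129 against 1273 and 2889, with CTR sample 2 far below the others. The part of these cells in the histone and cell-cycle values was not tested.

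Set side by side, the controls of both models gave different values for the variants, although the separate scaling and annotation allow no test. H2afz was at 1154, 1185 and 1026 in the E15.5 Larp7+/+ hearts and at 20 and 24 in the adult CTR apex. H3f3b was at 1287, 1219 and 1269 against 81 and 83, H3f3a at 230, 283 and 256 against 44 and 48, and H2afx at 132, 148 and 138 against 9 and 8. Hist1h1c was at 21, 23 and 22 in the embryo and at 81 and 76 in the adult, the opposite order to these 4 variants. The 5 replication-type genes listed in both models did not share this order. Hist1h4i (2, 2 and 3 against 4 and 4) was also higher in the adult. Hist2h2be (19, 14 and 20 against 6 and 6), Hist3h2a (16, 16 and 16 against 4 and 4) and Hist3h2ba (4, 4 and 4 against 1 and 0) were lower. H1f0 was listed in the adult table alone, at 104 and 101.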

How the data were processed

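Total RNA of mouse heart was extracted with a column kit and DNase, per the labels' protocols. Per the submitters' processing notes, HISAT2, HTSeq and the build mm10 were used, with neither roles nor versions stated. The authors deposited, for each model, a score per gene and sample (whole-number per-million values, TPM or CPM, which was not given in the sources used here), log2 fold changes and p-values, per the file headers.

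Within a table, limma 3.58.1 (R 4.3.3) compared the knockout with its control on log2(value + 1), with the replicate number as a block, a rounding variance of 0.0833 on the value scale, and eBayes with trend and robust options. Tested genes reached a value of 1 in at least as many samples as a group has. Calls are Benjamini-Hochberg adjusted p under 0.05 over all genes tested. The code was tested on simulated data. The block was used because same-numbered control and knockout values add to a constant total within 2 in 99.55% (E15.5) and 99.82% (adult) of genes with a mean of at least 10. Their deviations correlate at -0.82 to -0.80, which leaves 2 and 1 residual degrees of freedom; the labels state no pairing. No depth can be recovered.

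Members and lists were chosen with earlier results of these data known. Values in every sample are given for members called in either table, for all variants and the 5 replication-type members with the largest mean in a table, and for the 4 largest absolute changes at a mean of at least 8; other members printed were chosen after their values were seen. Sequences come from GENCODE M21 and RefSeq (GRCm38.p6). Other filters, a pseudocount of 0.5, median-of-ratios scaling, fits without the block or the rounding variance, and leaving out each sample were tried.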

Additional observations from a re-analysis of the deposited data

Results flagged for a closer look

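Of the 15 histone genes listed in both tables, 3 had log2 changes of opposite sign in the embryo and the adult, with no overlap between groups in either table. Such separation was common over all tested genes: 8.75% were lower without overlap at E15.5 and 29.3% were higher without overlap in the adult. The share of all genes that meet both conditions was not counted, so these 3 are not shown to be unusual. H2afz had -0.43 in the embryonic and 0.34 in the adult table. H2afx had -0.23 and 0.21 in the same order, and Hist1h1c had -0.25 and 0.19. None of the 6 changes passed the test, the difference between the models was not tested, and age, tissue sampled and kind of knockout differ together between the models and cannot be told apart.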

How the results depend on the processing

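The count of called histone genes depends on the settings. At E15.5 it was 0, and it stayed 0 without the replicate block, without the rounding variance, with genes of a mean under 10 left out, with a pseudocount of 0.5 and with median-of-ratios scaling. Without any filter it was 5 (601 over all genes, in place of 86), and without the replicate block and the rounding variance together it was 1 (H3f3b, 1040 over all genes). Leaving out 1 sample gave 0 to 7 (213 to 505 over all genes), with 7 when either sample of number 3 was left out (316 and 312). In the adult the count of 0 became 1 (H2afj) with no replicate block, beside 409 over all genes in place of 488. It became 3 with no rounding variance (H1fx, Hist1h4i and Hist2h2be, beside 1130), where H1fx entered the test through mCKO alone. With both dropped it was 5 (beside 1622). The other settings kept 0, and leaving out an adult sample leaves a single pair and no test.

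The median of the replication-type genes at E15.5 moved from -0.33 to -0.82 with a minimum mean of 10, which leaves 6 genes; over left-out samples it ran from -0.50 to -0.23. Other class medians moved by less than the spread between replicate numbers. H2afy2 at E15.5 changed sign with median-of-ratios scaling (-0.0062). Leaving out a sample of a pair changed the sign of small changes, over ranges of -0.085 to 0.33 for H1fx, -0.10 to 0.11 for H2afj and -0.45 to 0.035 for Hist2h2be at E15.5, and of -0.15 to 0.45 for H2afy, -0.030 to 0.21 for H3f3a, -0.31 to 0.50 for Hist1h2bc and -0.12 to 0.24 for Hist1h4h in the adult. Depth is lost in the rounded values, and at values of 0 to 5 rounding limits every member.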
